A study of Mus musculus with 17 samples.

Results

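The genes described here are the ligands and receptors of the 4 classical axon guidance systems in mouse lumbar dorsal root ganglia (DRGs), chosen by gene symbol: semaphorins with their plexin and neuropilin receptors, ephrins with their Eph receptors, Slits with their Robo receptors, and netrins with Dcc, neogenin (Neo1) and the Unc5 receptors. The symbols picked out 72 of the 19152 genes in the tables. Of these, 70 were guidance genes, and Unc50 and Unc5cl, which are not netrin receptors, matched by spelling only. A mean of at least 1 FPKM (fragments per kilobase of transcript, scaled to the mapped fragments of the library) in at least 1 group was reached by 61 of the 72, against 13408 of all 19152 genes, and only these 61 were tested. The 11 genes under this level were Epha1, Epha3, Epha4, Epha8, Epha10, Efna4, Sema3a, Robo3, Dcc, Unc5d and Unc5cl.

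Guidance molecules steer growing axons by attracting or repelling the growth cone. Class 3 semaphorins are secreted, and most act through receptor complexes of a neuropilin, which binds the ligand, and a plexin, which signals to the cytoskeleton. Most transmembrane semaphorins bind plexins directly. Ephrins are held at the cell surface and bind Eph receptor tyrosine kinases on the neighbouring cell, Slits are secreted repellents for Robo receptors, and netrins attract through Dcc or neogenin and repel through Unc5 receptors. In adult ganglia and nerves many of these genes remain expressed, in sensory neurons, glia and vessels.

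DRGs of Mtor fl/fl mice, which carry floxed Mtor alleles without Cre, were compared with those of Adv-Cre::Mtor fl/fl mice (Mtor-cKO), in which Cre driven by Advillin deletes Mtor in primary sensory neurons. Both genotypes carried the floxed alleles on a C57BL/6 background. They were sampled untreated (baseline) and 7 days after bilateral spared nerve injury (SNI), in which branches of the sciatic nerve are cut and 1 branch is spared. Each library held 4 lumbar ganglia pooled from 1 mouse, and the groups had 4 Mtor fl/fl baseline, 5 Mtor fl/fl day 7, 4 Mtor-cKO baseline and 4 Mtor-cKO day 7 libraries. The age and sex of the mice sequenced are not given in the sources used here, and no Adv-Cre control without floxed Mtor was analysed here. Whole ganglia hold glia, vessels and immune cells beside neurons, so that fewer cells of a type and less RNA per cell cannot be told apart, and neighbouring uninjured neurons were pooled with injured ones.

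Libraries held 17060876 to 21076542 expected counts. All 10 pan-neuronal markers were expressed in every library. Mtor, of which the nonneuronal cells keep their alleles, was lower in Mtor-cKO DRGs by 1.10 ± 0.29 (log2 fold change ± SE) at baseline and 0.91 ± 0.27 at day 7, and all 12 listed nerve injury genes rose after SNI in both genotypes. Libraries differed in markers of nonneuronal cells. Mtor fl/fl baseline replicates 1 and 2 and day 7 replicates 1 and 2 lay below the mean of all libraries in macrophage, fibroblast, endothelial and mural markers. So did Mtor-cKO baseline replicates 1, 2 and 3, with a mural deviation of -0.48 (log2 units) in replicate 2 against -0.02 in Mtor fl/fl baseline replicate 1. Alternatives without the low Mtor fl/fl libraries, given below, kept these Mtor-cKO libraries. Mtor fl/fl baseline replicates 3 and 4 and all 4 Mtor-cKO day 7 libraries lay above the mean in fibroblast, endothelial and mural markers. Mtor-cKO baseline replicate 2 and day 7 replicate 1 stood apart in skeletal muscle markers, with a summed level of 494.0 and 427.8 FPKM. Mtor fl/fl libraries were at 7.45 to 71.6 FPKM at baseline and 2.94 to 31.7 FPKM at day 7. The third highest library, Mtor-cKO baseline replicate 3, had a mean deviation of 1.35 in these markers, close to Mtor fl/fl baseline replicate 1 at 1.16.

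In uninjured Mtor fl/fl ganglia the most abundant guidance genes per length were Sema3b, a secreted semaphorin, at 59.1 ± 13.7 FPKM (SD, n = 4), and Plxnc1, the plexin that binds Sema7a, at 50.7 ± 6.43. Robo2, a Slit receptor of sensory axons, followed at 35.2 ± 9.79, then Sema7a, a semaphorin anchored to the membrane by a lipid, at 30.6 ± 4.53, Plxnd1 at 28.1 ± 2.75 and Sema4f at 27.0 ± 5.46. Neighbours in this order overlapped within their SDs. Every system thus had a ligand and a receptor above 1 FPKM, but levels were uneven within families. Ephrins were led by Efna1 at 21.6 ± 3.02 FPKM, and Eph receptors by Ephb6, a receptor whose kinase domain is inactive, at 10.5 ± 0.74, with the other 13 Eph receptors at 3.545 FPKM or less. Slit1 was at 18.5 ± 7.26 FPKM, and Slit2 at 4.65 ± 0.97. Among neuropilins, Nrp1 was at 13.0 ± 1.65 and Nrp2 at 11.4 ± 1.40. Netrins were low, with Ntn1 at 3.49 ± 1.74 FPKM, and so was Dcc, the classical attractive netrin receptor, at 0.15 ± 0.02, while Neo1 was at 5.16 ± 0.97. Sema3a, the founding class 3 repellent of sensory axons, was at 0.05 ± 0.04 FPKM.

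**Figure D1:**
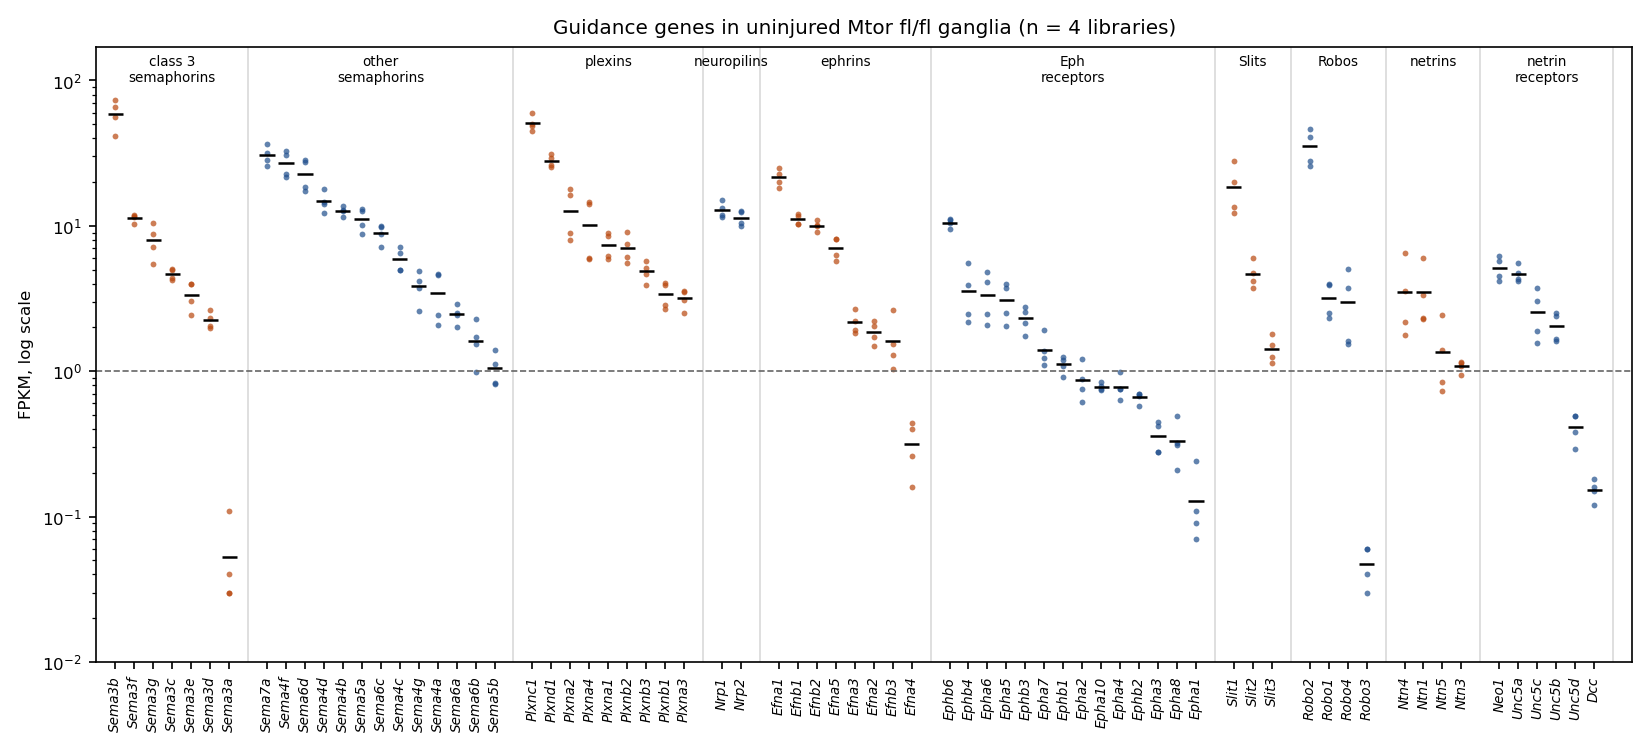
FPKM (log scale) of the 70 guidance genes in the 4 uninjured Mtor fl/fl libraries, by family. Points are libraries, black bars are means, and the dashed line is the 1 FPKM threshold. Sema3b, Plxnc1 and Robo2 lie highest, and Sema3a and Robo3 lie lowest.

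After SNI in Mtor fl/fl DRGs, 8 of the 61 genes passed the test (edgeR quasi-likelihood test, adjusted p under 0.05 over all 13408 genes). Semaphorins were 5 of these 8, and the 61 genes held 6 class 3 and 13 other semaphorins. Sema6a, Sema3c, Sema4f and Efna2 rose, and Sema7a, Sema3f, Slit2 and Ephb6 fell. The 4 of 61 that rose were 6.56%, where 4.66% of all genes tested rose, and the 4 that fell were 6.56%, where 2.58% of all genes fell. The split depended on a few libraries low or high in nonneuronal markers. Without Mtor fl/fl replicates 1 and 2 of both times 10 genes passed, 8 higher and 2 lower, and without baseline replicates 3 and 4 there were 17, 4 higher and 13 lower. Sema6a alone also exceeded a 2-fold rise (1.04% of all genes did), and the groups did not overlap for 5 of the 61 genes (8.2%), where they did not for 8.12% of all genes. The median log2 fold change was -0.058 over the 61 genes and -0.013 over all genes, and the median size of the change, regardless of sign, was 0.214 against 0.122.

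Sema6a, a transmembrane semaphorin that binds plexin-A2 and plexin-A4, was at 2.88, 2.52, 2.01 and 2.43 FPKM in the baseline libraries and at 11.4, 10.7, 22.7, 12.7 and 7.96 FPKM at day 7. All 5 injured libraries lay above all baseline libraries, with replicate 3 highest and replicate 5 lowest. The rise was 2.42 ± 0.25 on the log2 scale, or 5.37-fold (edgeR adjusted p = 1.7e-05). Its receptors did not pass, with a log2 fold change of 0.52 ± 0.28 for Plxna4 (adjusted p = 0.33) and -0.20 ± 0.24 for Plxna2 (adjusted p = 0.73). Sema3c, a secreted semaphorin that acts through neuropilins and plexin-D1, was at 4.25, 4.36, 5.08 and 4.95 FPKM at baseline and 5.94, 6.06, 9.20, 6.21 and 7.09 FPKM at day 7. The groups did not overlap, and the rise was 0.58 ± 0.10 (adjusted p = 0.0017). Sema7a, which binds plexin-C1 and integrins, was at 36.5, 28.5, 31.6 and 26.0 FPKM at baseline and 19.6, 19.4, 15.2, 18.6 and 15.6 FPKM at day 7. Every injured library was below every baseline library, a fall of 0.74 ± 0.12 on the log2 scale (adjusted p = 0.0009), while its receptor Plxnc1 had a log2 fold change of 0.05 ± 0.13 (adjusted p = 0.88). Sema6a, Sema3c and Sema7a kept their call under all 28 alternatives tried, and without the 3 libraries highest in skeletal muscle markers, all Mtor-cKO, 5 of the 8 calls remained. The log2 fold changes of the 3 lost genes, Sema4f, Efna2 and Ephb6, did not move there (0.67, 0.47 and -0.22). They rest on the Mtor fl/fl libraries, all of which were kept, so this says nothing of their stability.

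Sema4f, a transmembrane class 4 semaphorin, was at 30.6, 32.6, 22.8 and 21.8 FPKM at baseline and 46.9, 43.9, 53.5, 41.7 and 29.6 FPKM at day 7. Day 7 replicate 5 lay within the baseline range, and the rise was 0.67 ± 0.17 (adjusted p = 0.0242). Efna2, an ephrin-A ligand, was at 1.5, 1.71, 2.06 and 2.23 FPKM at baseline and 2.30, 2.61, 2.98, 2.06 and 2.91 FPKM at day 7. The groups overlapped through day 7 replicate 4, and the rise was 0.47 ± 0.12 (adjusted p = 0.0241). Sema3f, a secreted semaphorin that binds neuropilin-2, fell by 0.48 ± 0.11 (adjusted p = 0.0132), with 10.2 to 11.96 FPKM at baseline and 6.95 to 9.23 FPKM at day 7. Slit2, a repellent for Robo receptors, fell by 0.51 ± 0.13 (adjusted p = 0.0196), from 3.75 to 5.98 FPKM at baseline to 2.86 to 3.68 FPKM at day 7. Neither of these genes overlapped between the groups. Ephb6 fell by 0.22 ± 0.06 (adjusted p = 0.0318), the smallest of the 8 changes, with the groups overlapping. These 5 calls were less stable. The calls of Sema3f (adjusted p = 0.0516), Slit2 (0.0643, with a log2 fold change of -0.34), Efna2 (0.0846) and Ephb6 (0.102) were lost without baseline replicate 1. Slit2 was at -0.23 (0.262) without Mtor fl/fl replicates 1 and 2 of both times. Sema4f was lost without baseline replicate 3 (0.0806) or 4 (0.0692) or day 7 replicate 1 (0.0520) or 3 (0.0728), and without both of these baseline replicates its rise was 0.38 (0.138). Efna2 was also lost without day 7 replicate 3 (0.0709). Ephb6 was further lost without baseline replicate 3 or day 7 replicate 1, 2, 3 or 4 (0.0517 to 0.0824).

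**Figure D2:**
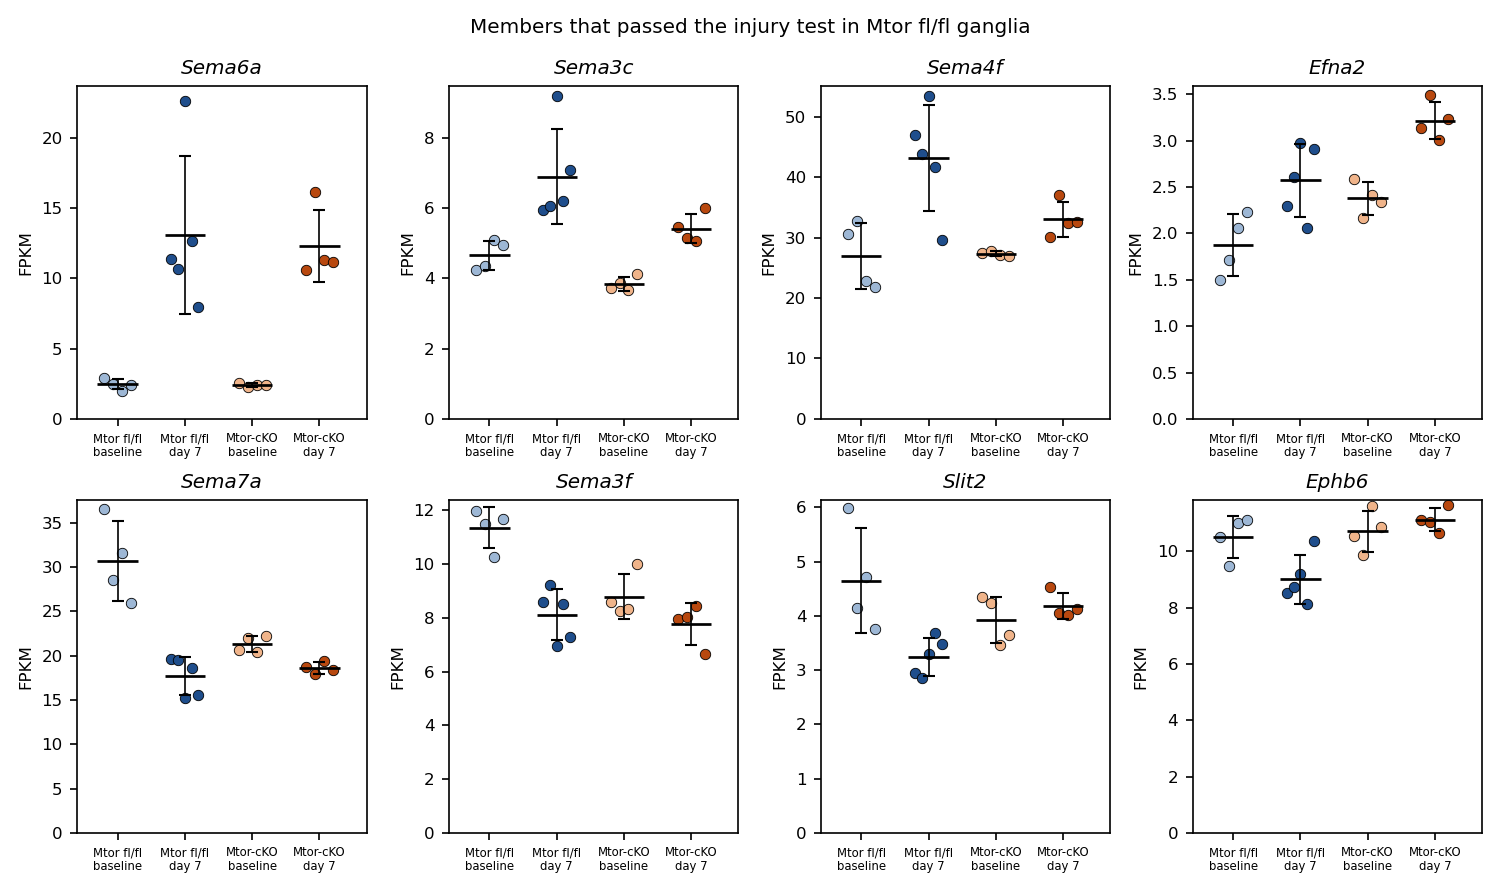
FPKM of the 8 guidance genes that passed the injury test in Mtor fl/fl ganglia, in all 4 groups. Points are libraries, bars are means and whiskers are SDs. The 5 Mtor fl/fl day 7 libraries lie above the baseline libraries for Sema6a and Sema3c and below them for Sema7a, Sema3f and Slit2.

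For 3 of these genes, chosen as semaphorins that rose or fell after injury, the 250 bases before a RefSeq start are shown (GRCm38.p6). For Sema7a this start lies inside the gene, whose RefSeq span begins at chr9:57939596, so its window is not upstream of the whole gene. Sema3c lies at chr5:17574566-17574815 on the plus strand, Sema4f at chr6:82939770-82940019 on the minus strand and Sema7a at chr9:57939862-57940111 on the plus strand. Each is printed 5′ to 3′ on the gene's strand, with capitals marking GC boxes (GGGCGG on either strand).
Sema3c: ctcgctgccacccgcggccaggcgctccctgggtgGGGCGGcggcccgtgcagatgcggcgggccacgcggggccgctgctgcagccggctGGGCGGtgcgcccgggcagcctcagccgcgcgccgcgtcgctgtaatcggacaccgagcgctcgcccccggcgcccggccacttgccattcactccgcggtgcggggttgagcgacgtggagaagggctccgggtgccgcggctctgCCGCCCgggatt
Sema4f: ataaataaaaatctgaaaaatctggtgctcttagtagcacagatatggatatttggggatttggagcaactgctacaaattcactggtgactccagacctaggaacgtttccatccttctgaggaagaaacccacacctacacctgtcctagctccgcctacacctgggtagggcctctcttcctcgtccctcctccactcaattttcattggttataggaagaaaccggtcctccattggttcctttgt
Sema7a: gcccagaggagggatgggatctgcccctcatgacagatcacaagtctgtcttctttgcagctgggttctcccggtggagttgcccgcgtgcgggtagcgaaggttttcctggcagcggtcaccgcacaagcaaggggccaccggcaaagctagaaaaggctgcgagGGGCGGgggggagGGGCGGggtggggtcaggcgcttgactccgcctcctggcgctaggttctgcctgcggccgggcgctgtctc
The windows differed in base composition, with 78.4% G or C for Sema3c, 66.4% for Sema7a and 46.0% for Sema4f. GC boxes numbered 3 in Sema3c, 2 in Sema7a and 0 in Sema4f. At least 1 was held by 32.74% of the 32851 promoters in the table, and by 41 of the 53 tested guidance-list genes with an entry (77.4%). The first share counts promoter entries of all genes. The second counts genes that reached 1 FPKM, each over all its entries, so these shares cannot be set against each other. None of these 3 windows held the AP-1 letters TGANTCA (6.75% of all promoters), the CRE letters TGACGTCA (1.55%) or their part TGACG (17.77%), the STAT letters TTCNNNGAA (7.02%) or the ATF4 letters TGANGCAA (3.12%), each searched on both strands. Of the 61 genes tested, 53 had an entry, and 3 of these held the AP-1 letters, in Sema4c, Sema4d and Sema6b, none of which passed the injury test in either genotype.

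In Mtor-cKO DRGs, 7 of the 61 genes passed the injury test. Sema6a, Sema3c, Sema3g, Sema6c, Plxnb1 and Slit3 rose, and Unc5b fell. The 6 that rose were 9.84% of the 61, where 4.57% of all genes rose, and the single fall was 1.64%, where 2.38% of all genes fell. Sema6a was again the only gene to rise by more than 2-fold (1.13% of all genes). Groups that did not overlap were common here, in 22 of the 61 genes (36.1%) and in 29.1% of all genes. The median log2 fold change was 0.098 over the 61 genes and -0.002 over all genes.

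Sema6a was at 2.59, 2.29, 2.41 and 2.40 FPKM in the Mtor-cKO baseline libraries and at 10.6, 16.2, 11.3 and 11.1 FPKM at day 7. The groups were far apart, with a rise of 2.35 ± 0.26, or 5.10-fold (adjusted p = 3.6e-05), and the difference from the rise in Mtor fl/fl was -0.07 (95% interval -0.75 to 0.61). Sema3c was at 3.74, 3.86, 3.68 and 4.12 FPKM at baseline and 5.47, 5.15, 5.06 and 6.0 FPKM at day 7, without overlap. It rose by 0.47 ± 0.11 (adjusted p = 0.0145), and this call was lost without Mtor-cKO baseline replicate 3 (0.0539). Sema7a, at 20.4 to 22.2 FPKM at baseline and 17.9 to 19.4 FPKM at day 7, had a log2 fold change of -0.24 ± 0.13 (adjusted p = 0.24), and its difference from Mtor fl/fl did not pass (0.50 ± 0.17, adjusted p = 0.24).

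The other 5 genes with an injury call in Mtor-cKO DRGs changed less. Slit3, a Slit ligand, was at 0.94, 0.84, 0.86 and 0.86 FPKM at baseline and 1.33, 1.23, 1.32 and 1.73 FPKM at day 7. No library overlapped, and the rise was 0.65 ± 0.17 (adjusted p = 0.0311). Sema3g, a secreted semaphorin known from vessels, was at 4.09, 4.38, 4.05 and 5.29 FPKM at baseline and 7.06, 6.25, 7.43 and 6.22 FPKM at day 7. It rose by 0.55 ± 0.15 (adjusted p = 0.0375), again without overlap. Plxnb1, the receptor of Sema4d, rose by 0.48 ± 0.12 (adjusted p = 0.0265) from 2.47 to 3.36 FPKM at baseline to 4.02 to 4.82 FPKM at day 7. Sema6c, a transmembrane semaphorin, rose by 0.30 ± 0.08 (adjusted p = 0.0419). Unc5b, a netrin receptor of neurons and endothelium, fell by 0.66 ± 0.18 (adjusted p = 0.0365), from 2.45 to 2.78 FPKM to 1.57 to 1.83 FPKM. The macrophage, mural, fibroblast, myelinating Schwann cell and satellite glia lists had higher mean levels in every day 7 library than in any baseline library. Only 1 of 15 macrophage, 1 of 6 mural, 0 of 7 fibroblast, 1 of 8 Schwann cell and 1 of 7 satellite glia markers passed the test. The mean macrophage deviation, in log2 units from the mean of all libraries, was 0.37 to 1.12 at day 7 against -0.89 to 0.14 at baseline. The mural deviation was 0.35 to 0.53 against -0.48 to 0.34, and the fibroblast deviation was 0.23 to 0.50 against -0.41 to 0.20. The Schwann cell deviation was 0.02 to 0.49 against -0.39 to -0.26, and the satellite glia deviation was 0.06 to 0.12 against -0.14 to -0.06. The part of these cells in the 5 changes was not tested.

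Most single libraries decided these 5 calls. Unc5b and Slit3 were lost without any 1 of the 8 Mtor-cKO libraries (adjusted p 0.0594 to 0.106 and 0.0511 to 0.0931). Sema3g was lost without any 1 of them other than baseline replicate 4 (0.0503 to 0.115), and Plxnb1 without any 1 other than baseline replicates 1 and 4 (0.0517 to 0.101). Sema6c was lost without any 1 other than day 7 replicate 3, and also without Mtor fl/fl day 7 replicate 4 (0.0521 to 0.129). When only the 8 Mtor-cKO libraries were fitted, with their own estimate of the spread, 25 genes passed, 17 of them higher. Without the 3 libraries highest in skeletal muscle markers, which leaves 2 Mtor-cKO baseline and 3 day 7 libraries, only Sema6a passed, while the log2 fold changes of the 6 lost genes were 0.84 to 1.14 times those over all libraries.

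**Figure D3:**
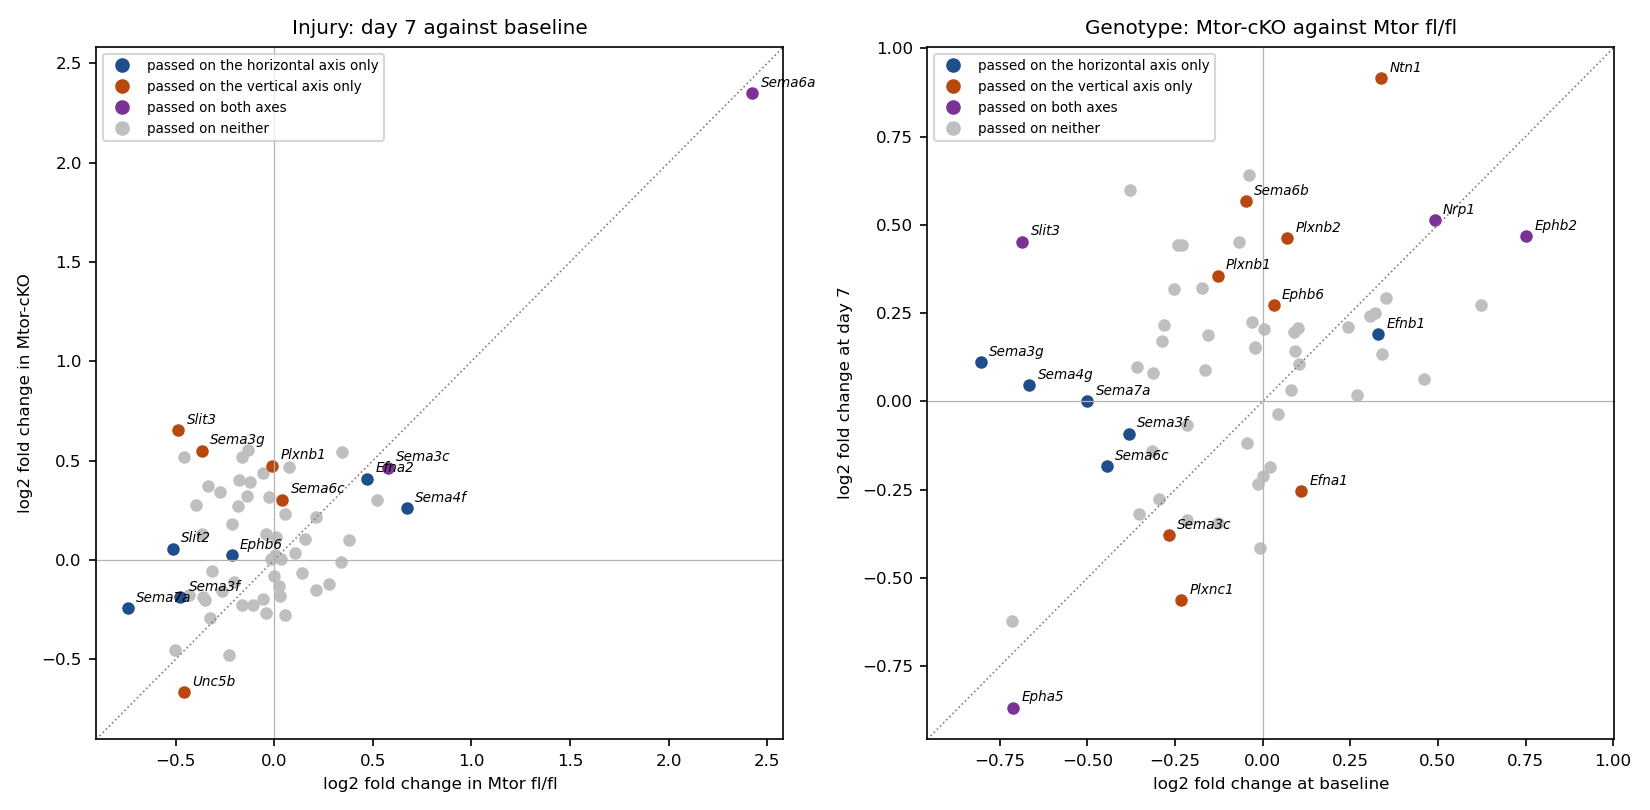
Log2 fold changes of the 61 genes tested, injury in Mtor-cKO against injury in Mtor fl/fl (left) and genotype at day 7 against genotype at baseline (right). Colours mark in which comparison a gene passed, and the dotted line marks equal values. Sema6a stands alone at 2.42 and 2.35 on the left, and Slit3 passed with opposite signs on the right.

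Before injury, loss of Mtor in sensory neurons went with lower levels of several semaphorins. In Mtor-cKO DRGs, Sema3f, Sema3g, Sema4g, Sema6c, Sema7a, Slit3 and Epha5 were lower and Nrp1, Ephb2 and Efnb1 were higher. The 3 higher genes were 4.92% of the 61, where 7.97% of all genes were higher, and the 7 lower genes were 11.5%, where 7.91% of all genes were lower. Every passing gene differed by less than 2-fold, while 1.65% of all genes passed with more than a 2-fold difference. Without the 3 libraries highest in skeletal muscle markers, 2 of them from this Mtor-cKO group of 4, only Sema6c passed, while the log2 fold changes of the 9 lost genes were 0.82 to 1.13 times those over all libraries. The split was turned without Mtor fl/fl replicates 1 and 2 of both times, where 23 genes passed, 14 higher and 9 lower. It leaned further to lower without Mtor fl/fl baseline replicates 3 and 4, where 13 passed, 2 higher and 11 lower. The groups did not overlap for 11 of the 61 genes (18.0%), where they did not for 19.8% of all genes. The median log2 fold change was -0.045 over the 61 genes and -0.012 over all genes.

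Sema3g was at 7.12, 5.45, 10.4 and 8.77 FPKM in Mtor fl/fl and at 4.09, 4.38, 4.05 and 5.29 FPKM in Mtor-cKO. The groups did not overlap, and Mtor-cKO was lower by 0.80 ± 0.15 on the log2 scale (adjusted p = 0.0019). Sema4g, a transmembrane semaphorin, was at 3.73, 2.61, 4.88 and 4.20 FPKM against 2.56, 2.06, 2.45 and 2.55 FPKM, without overlap, with a log2 fold change of -0.67 ± 0.16 (adjusted p = 0.0088). Sema6c was at 8.79, 7.10, 10.03 and 9.86 FPKM against 6.82, 7.04, 6.22 and 6.07 FPKM. All Mtor-cKO libraries were lower, with a log2 fold change of -0.45 ± 0.08 (adjusted p = 0.0021), the only baseline call kept under all 28 alternatives. Slit3 was at 1.25, 1.13, 1.79 and 1.51 FPKM against 0.94, 0.84, 0.86 and 0.86 FPKM, without overlap (-0.69 ± 0.17, adjusted p = 0.0122). In Sema3g, Sema4g and Slit3, Mtor fl/fl replicate 3 was the highest library and replicate 2 the lowest of the 4. Myelinating Schwann cell markers were ordered alike, with a mean deviation of 0.83 in replicate 3, -0.30 in replicate 2 and -0.39 to -0.26 in the 4 Mtor-cKO libraries, and 2 of 8 of these markers, Pmp22 and Mbp, were lower in Mtor-cKO. Their part in these differences was not tested. Without Mtor fl/fl replicates 3 and 4, Sema3g and Sema6c kept their call, while Sema4g (adjusted p = 0.0835) and Slit3 (0.0892) did not.

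Sema7a was at 36.5, 28.5, 31.6 and 26.0 FPKM in Mtor fl/fl baseline libraries and at 20.6, 21.9, 20.4 and 22.2 FPKM in Mtor-cKO, a difference of -0.50 ± 0.13 without overlap (adjusted p = 0.0128). At day 7 the genotypes were at 15.2 to 19.6 and 17.9 to 19.4 FPKM, a difference of 0.00 (95% interval -0.23 to 0.24). Sema3f was at 10.2 to 11.96 against 8.25 to 10.01 FPKM (-0.38 ± 0.12, adjusted p = 0.0358), and its call was lost without Mtor fl/fl replicate 1 or 2 or Mtor-cKO replicate 1, 2 or 3 (0.0719 to 0.0963).

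Among receptors, Nrp1, the coreceptor of class 3 semaphorins and of VEGF, was at 13.4, 15.1, 11.4 and 11.9 FPKM in Mtor fl/fl and at 20.4, 16.6, 17.7 and 17.8 FPKM in Mtor-cKO. All Mtor-cKO libraries were higher, by 0.49 ± 0.13 (adjusted p = 0.0151), and the call was lost without Mtor fl/fl replicate 3 (0.41, adjusted p = 0.0505) and without replicates 3 and 4 (0.26, 0.145). Ephb2, a receptor of ephrin-B ligands, was low, at 0.68, 0.70, 0.58 and 0.70 FPKM against 1.18, 1.05, 1.06 and 1.17 FPKM. It was higher in Mtor-cKO by 0.75 ± 0.18, without overlap (adjusted p = 0.0094), and did not pass without Mtor fl/fl replicates 3 and 4 (0.62, 0.0746). Efnb1, an ephrin-B ligand on the X chromosome, was at 10.2 to 12.1 against 13.4 to 14.7 FPKM (0.33 ± 0.07, adjusted p = 0.0068). Epha5, an ephrin-A receptor of neurons, was at 3.98, 3.75, 2.52 and 2.06 FPKM against 1.97, 2.21, 2.01 and 1.6 FPKM. Mtor fl/fl replicate 4 lay inside the Mtor-cKO range, and Epha5 was lower by 0.71 ± 0.20 (adjusted p = 0.0220), lost without Mtor fl/fl replicate 1 (0.0746) or 2 (0.0527) or Mtor-cKO replicate 4 (0.0678). Without Mtor fl/fl replicates 1 and 2 of both times the Epha5 difference was -0.28 (adjusted p = 0.225).

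At day 7 after SNI, 12 of the 61 genes tested differed between the genotypes. Nrp1, Plxnb1, Plxnb2, Sema6b, Ephb2, Ephb6, Slit3 and Ntn1 were higher in Mtor-cKO, and Sema3c, Plxnc1, Efna1 and Epha5 were lower. The 8 higher genes were 13.1% of the 61, where 12.9% of all genes were higher, and the 4 lower genes were 6.56%, where 13.1% of all genes were lower. Every passing gene differed by less than 2-fold, while 2.39% of all genes passed with more than a 2-fold difference. Without the 3 libraries highest in skeletal muscle markers, 5 of the 12 passed, and the log2 fold changes of the 7 lost genes were 0.88 to 1.06 times those over all libraries. There were 9, 4 higher and 5 lower, without Mtor fl/fl replicates 1 and 2 of both times. The groups did not overlap for 12 of the 61 genes (19.7%), where they did not for 27.3% of all genes. The median log2 fold change was 0.142 over the 61 genes and 0.034 over all genes.

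Nrp1 was at 14.1, 13.7, 12.4, 12.9 and 11.5 FPKM in Mtor fl/fl and at 19.6, 18.3, 19.4 and 19.1 FPKM in Mtor-cKO. All Mtor-cKO libraries were higher, by 0.51 ± 0.12 (adjusted p = 0.0052), and Nrp1 had an injury log2 fold change of 0.00 ± 0.12 in Mtor fl/fl and 0.03 ± 0.13 in Mtor-cKO. Epha5 was at 3.49, 3.05, 2.73, 3.60 and 2.75 FPKM against 1.68, 1.87, 1.98 and 1.55 FPKM. The groups did not overlap at day 7, and Mtor-cKO was lower by 0.87 ± 0.19 (adjusted p = 0.0034). Plxnc1, the Sema7a receptor, was at 57.0, 56.7, 41.3, 59.4 and 47.1 FPKM against 36.3, 33.8, 37.2 and 38.4 FPKM. All Mtor-cKO libraries were lower, by 0.56 ± 0.13 (adjusted p = 0.0056). Ephb6 was at 8.53, 8.73, 9.20, 8.14 and 10.4 FPKM against 11.1, 11.03, 10.7 and 11.6 FPKM, higher in Mtor-cKO by 0.27 ± 0.06 without overlap (adjusted p = 0.0028). The calls of Nrp1, Epha5, Plxnc1 and Ephb6 were kept under all 28 alternatives. Pan-neuronal markers moved the same way as Epha5 and Plxnc1, with 4 of 10 lower in Mtor-cKO at day 7 and summed levels of 6355 to 7118 FPKM against 7042 to 8593 FPKM, and their part was not tested.

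Sema3c was lower in Mtor-cKO at day 7 by 0.38 ± 0.10 (adjusted p = 0.0105), with 5.94 to 9.20 FPKM in Mtor fl/fl and 5.06 to 6.0 FPKM in Mtor-cKO. At baseline its difference was -0.27 ± 0.11 (adjusted p = 0.10). Efna1, an ephrin-A ligand, was lower by 0.25 ± 0.08 (adjusted p = 0.0243), a call lost without Mtor fl/fl replicate 1 (0.0653) or Mtor-cKO replicate 2 (0.0792) or 3 (0.0777). Plxnb2, a receptor of class 4 semaphorins, was at 5.86, 5.67, 8.34, 7.58 and 9.74 FPKM against 11.01, 10.2, 9.97 and 10.4 FPKM. It was higher in Mtor-cKO by 0.46 ± 0.13, without overlap (adjusted p = 0.0160). Ntn1, the secreted ligand of Dcc, neogenin and Unc5 receptors, was at 1.92, 2.22, 5.01, 2.35 and 3.66 FPKM against 7.11, 5.71, 5.58 and 4.82 FPKM, overlapping through Mtor fl/fl replicate 3. It had the largest difference of the 12, 0.91 ± 0.28 (adjusted p = 0.0244), lost without Mtor fl/fl replicate 1 (0.0599), 2 (0.0590) or 4 (0.0557) or Mtor-cKO replicate 1 (0.0772).

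Plxnb1 (0.36 ± 0.11, adjusted p = 0.0297), Sema6b (0.57 ± 0.18, 0.0296), Ephb2 (0.47 ± 0.17, 0.0491) and Slit3 (0.45 ± 0.16, 0.0471) were higher in Mtor-cKO with overlapping groups. Ephb2 and Slit3 lay at the threshold, and each lost its call in 21 of the 28 alternatives, 14 and 13 of them without a single library. Sema6b was lost without Mtor fl/fl or Mtor-cKO replicate 1, 2 or 3 (0.0610 to 0.0907), and Plxnb1 without any 1 of Mtor fl/fl replicates 1 to 4 or of Mtor-cKO replicates 1, 3 and 4 (0.0523 to 0.0925). Mural markers (4 of 6), endothelial markers (3 of 8) and skeletal muscle markers (7 of 7) were also higher in Mtor-cKO at day 7, with summed mural levels of 105.7 to 121.2 FPKM against 64.9 to 108.6 FPKM. Robo4, the Robo of endothelium, was at 2.52 to 3.80 against 1.54 to 3.13 FPKM (0.60 ± 0.29, adjusted p = 0.13), and Ntn4, a netrin of basement membranes, at 4.27 to 5.20 against 1.86 to 4.55 FPKM (0.64 ± 0.29, adjusted p = 0.11). These 2 genes did not pass and were named after their values were seen. The part of vessel cells in the higher genes was not tested. Mtor fl/fl replicates 1 and 2 of both times lay below the mean in mural and endothelial markers, baseline replicate 1 barely in mural (-0.02). Day 7 replicates 3 and 4 also lay below it, in mural (-0.20 and -0.14) and endothelial markers (-0.025 and -0.20). Without replicates 1 and 2 of both times the edgeR difference of Plxnb1 was 0.22 (adjusted p = 0.183) and of Slit3 0.25 (0.240). Those of Plxnb2 and Ntn1 were 0.27 (0.076) and 0.64 (0.0916). That of Sema6b was 0.46 (0.0728) and of Ephb2 0.38 (0.176), while Nrp1 and Ephb6 kept their calls.

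**Figure D4:**
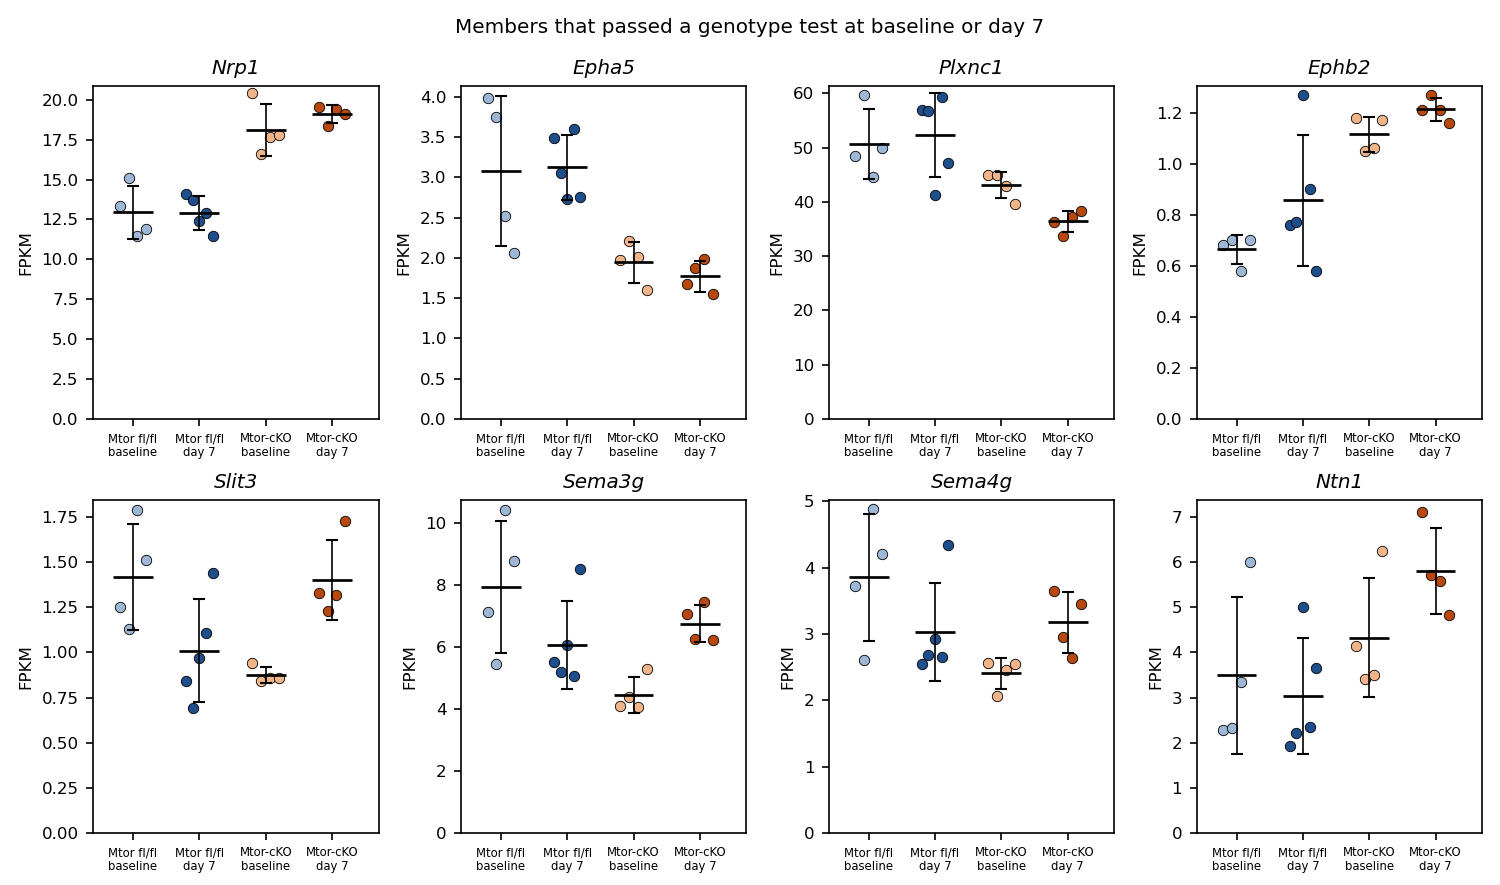
FPKM of 8 guidance genes that passed a genotype test at baseline or day 7, in all 4 groups. Points are libraries, bars are means and whiskers are SDs. Nrp1 is higher in every Mtor-cKO library than in any Mtor fl/fl library at the same time, and Epha5 and Plxnc1 are lower in Mtor-cKO at day 7.

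**Figure D5:**
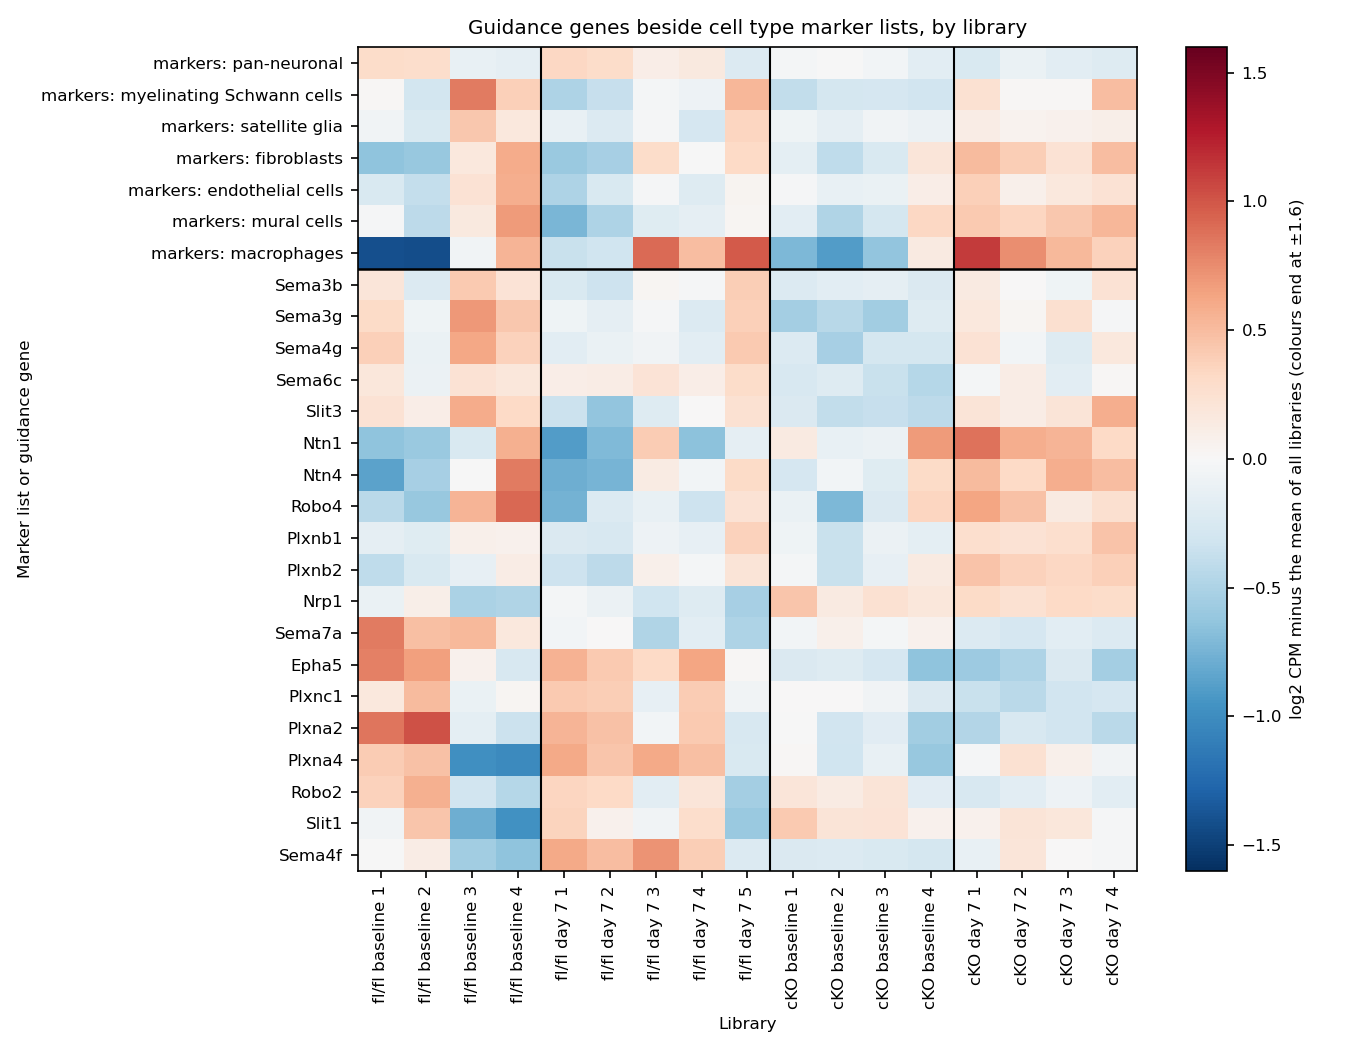
Deviation of each library from the mean of all libraries (log2 CPM) for 7 cell type marker lists (means over the listed genes, above the line) and 19 guidance genes (below it). Libraries are grouped by genotype and time. Macrophage, fibroblast and mural markers are below the mean in Mtor fl/fl replicates 1 and 2 at both times, mural markers only by 0.02 in baseline replicate 1. Ntn1, Ntn4 and Robo4 are also below it there. Mural markers and these genes are below it in Mtor fl/fl day 7 replicate 4 too (Ntn1 at -0.66). All 4 Mtor-cKO day 7 libraries are above the mean for Ntn1, Ntn4, Robo4, Plxnb1 and Plxnb2.

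Whether injury acted differently in the genotypes was tested by the interaction of injury and genotype. By edgeR 0 of the 61 genes passed, where 0.082% of all genes did. At an unadjusted p under 0.05 there were 16 of the 61 (26.2%), where 13.0% of all genes were under it. DESeq2 called 2, Slit3 and Sema3g, both with a more positive injury change in Mtor-cKO. In the edgeR fit the interaction was 1.14 ± 0.23 for Slit3 (adjusted p = 0.0918), whose log2 fold change after SNI was -0.49 ± 0.16 in Mtor fl/fl (adjusted p = 0.083) and 0.65 ± 0.17 in Mtor-cKO. For Sema3g it was 0.92 ± 0.21 (adjusted p = 0.104), from -0.37 ± 0.14 in Mtor fl/fl (adjusted p = 0.15) and 0.55 ± 0.15 in Mtor-cKO. Both genes passed without Mtor fl/fl baseline replicate 2 (Sema3g 0.0398, Slit3 0.0461), without Mtor fl/fl day 7 replicate 5 (0.0256, 0.0226) and without Mtor fl/fl replicates 1 and 2 of both times (0.0299, 0.0342), and Plxnb1 also passed without day 7 replicate 5 (0.0331). With the replicate number as a block, edgeR called Slit3 (0.0181), Plxnb1 (0.0207), Sema3g (0.0241) and Sema4g (0.0452), though the numbers were not taken to pair the mice. The Schwann cell, mural and fibroblast lists had median interactions of 0.81, 0.87 and 0.66, with 0 genes of each passing, and their part was not tested.

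The wider guidance machinery was described by a list of 43 adaptors and effectors, all tested, and a list of 30 other guidance ligands and coreceptors, of which 28 were tested. After SNI in Mtor fl/fl, 4 of 43 adaptors and effectors rose (9.3%) and 1 fell (2.33%), where 4.66% and 2.58% of all genes did. Dpysl4 and Crmp1, collapsin response mediator proteins, which bind microtubules and act downstream of semaphorins, rose by 0.61 ± 0.10 (adjusted p = 0.0010) and 0.79 ± 0.18 (0.0100), and Rnd1, a small GTPase that binds plexins, rose by 1.46 ± 0.26 (0.0023). Farp2, an exchange factor for Rac that binds plexin-A receptors, fell by 0.29 ± 0.07 (0.0172). In Mtor-cKO 6 rose (14.0%, against 4.57% of all genes) and 0 fell, led by the kinase Rock2 (0.36 ± 0.07, adjusted p = 0.0062). Of the 28 other ligands and coreceptors, 4 rose in each genotype (14.3%) and 0 fell. Flrt3, Draxin and Itgb1 rose in both. Chl1 passed in Mtor fl/fl only (1.61 ± 0.22, adjusted p = 0.00019), and Sdc3 in Mtor-cKO only (0.58 ± 0.11, 0.0042). At baseline Chl1 was higher in Mtor-cKO by 1.04 ± 0.22 (0.0044) and Sdc3 lower by 0.34 ± 0.11 (0.0429). Their interactions were -1.21 ± 0.30 (0.125) and 0.55 ± 0.15 (0.150). Flrt3, an adhesion protein that binds Unc5 and Robo receptors, rose by 2.59 ± 0.23 in Mtor fl/fl (adjusted p = 3.9e-06) and 2.71 ± 0.24 in Mtor-cKO (5.1e-06), more than any of the 61 genes. Draxin, a secreted ligand of Dcc, rose by 1.44 ± 0.21 (0.00043) and 1.17 ± 0.21 (0.0036), and Itgb1, the integrin chain that binds Sema7a, by 0.38 ± 0.08 (0.0096) and 0.36 ± 0.09 (0.0238). Between genotypes, 4 of the 28 were higher (14.3%, against 7.97% of all genes) and 1 lower (3.57%, against 7.91%) in Mtor-cKO at baseline, and 6 were higher (21.4%, against 12.9%) and 1 lower (3.57%, against 13.1%) at day 7. Islr2, a membrane protein of sensory axons, led at both times, higher by 1.90 ± 0.17 (adjusted p = 2.6e-06) and 1.99 ± 0.16 (6.1e-07), followed by Rtn4r, the Nogo receptor, higher by 1.17 ± 0.16 (0.00017) and 1.44 ± 0.15 (1.1e-05). Of the adaptors and effectors, 3 were higher (6.98%) and 5 lower (11.6%) at baseline, and 5 higher (11.6%) and 4 lower (9.3%) at day 7, the last pair both under the shares of all genes. Limk2, a kinase that acts on cofilin, was lower at both times, by 0.30 ± 0.08 (adjusted p = 0.0155) and 0.44 ± 0.07 (0.00055). No gene of either list passed the edgeR interaction test.

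Of the 61 genes tested, 38 passed in none of the 5 comparisons. They included some of the most abundant, such as Sema3b, Robo2, Plxnd1, Sema6d and Slit1, all 3 tested Robos, and Neo1, Unc5a and Unc5c among netrin receptors. Robo2, for example, was at 25.9 to 46.1 FPKM in Mtor fl/fl baseline libraries and 24.0 to 39.6 FPKM at day 7, a log2 fold change of -0.04 (95% interval from -0.44 to 0.35). Some tested genes share exonic bases with neighbouring genes in the GENCODE annotation, and whether the counting used strand is not given in the sources used here. Among those that passed a test these were Plxnb1 (2.97% of exon bases), Plxnc1 (1.57%) and Nrp1 (1.03%).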

How the data were processed

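RNA was sequenced on the BGISEQ-500 platform from pooled lumbar DRGs. The authors deposited estimated (expected) counts and FPKM per gene, and the submitters' processing notes name HISAT2 2.0.4, Bowtie2 2.2.5, RSEM 1.2.12 and the mm9 genome, while the methods name GRCm38.p5, so no coordinates were taken for the genes in the tables. Of the deposited expected counts, 35.6% were not whole, and all were rounded. FPKM as computed by the authors were used for levels and for the threshold of 1 FPKM, which lets a gene in through its highest group. The 8 value columns of 2 libraries with no label were not used, and the authors' own comparisons were not used. A row without a gene held 0 counts. Symbols that were missing, duplicated or turned into dates were mended for 11 genes in the count table and 28 in the FPKM table.

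Counts were fitted with edgeR 4.0.16 (R 4.3.3) with TMM normalization and 1 coefficient per group over all 17 libraries, and p-values were adjusted over 13408 genes by the Benjamini-Hochberg method. Log2 fold changes are given ± SE, derived from the test statistic. The 95% intervals use this SE with a normal quantile, which makes them somewhat narrow for so few libraries. Alternatives used DESeq2 1.42.0, limma 3.58.1 on log2(FPKM + 1) and log2(FPKM + 0.1), RLE normalization, other filters, only the groups compared, a replicate block and each library left out. The scripts were tested on simulated data. Genes that passed in any comparison, the highest gene of each family and up to 4 genes of each other list per comparison were named. The genes and lists were chosen with earlier results of these data known. Replicates are separate mice. No libraries were duplicates: the mean chi-square per gene between replicates was at least 3.59. Depth was 17060876 to 21076542 expected counts, and counting error limits genes near 1 FPKM most. Promoter sequences and their coordinates came from RefSeq (GRCm38.p6) and matched 62 of the 72 genes, and gene overlaps from GENCODE.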

Additional observations from a re-analysis of the deposited data

Results flagged for a closer look

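Among 27 genes checked in each of the 4 groups (108 sets of values), 5 had a library far from the others of its group by Dixon's test. Chance flags about 1 in 20 such sets. Mtor fl/fl day 7 replicate 5 was the highest for 3 of them, at 4.74 FPKM for Plxnb1 (the other 4 libraries at 2.69 to 3.23), 8.49 FPKM for Sema3g (5.07 to 6.04) and 4.34 FPKM for Sema4g (2.55 to 2.92). Mtor-cKO day 7 replicate 2 was the highest for Sema6a, at 16.17 FPKM (10.61 to 11.3). Mtor fl/fl baseline replicate 3 was the lowest for Ephb2, at 0.58 FPKM (0.68 to 0.7).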

How the results depend on the processing

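Of 37 results (a gene in a comparison it passed), 9 kept their call under all 28 alternatives and 28 lost it under at least 1; 843 of 1036 values stayed past the threshold, 193 did not, and 0 reversed. Leaving out single libraries gave 4 to 13 passing genes for injury in Mtor fl/fl (8 in the fit over all libraries), 1 to 9 for injury in Mtor-cKO (7), 8 to 14 for genotype at baseline (10), 6 to 15 for genotype at day 7 (12) and 0 to 3 for the interaction (0). The ends were 4 without Mtor fl/fl baseline replicate 1, 13 without Mtor fl/fl day 7 replicate 5, 1 without Mtor-cKO baseline replicate 3 and 6 without Mtor fl/fl day 7 replicate 1. Fitting only the groups compared gave 3 for injury in Mtor fl/fl and 25 for injury in Mtor-cKO, and could not be done for the interaction, which uses all groups. Limma gave 3 for injury in Mtor-cKO with either pseudocount. DESeq2 gave 2 interactions. Same-numbered libraries had correlations of their deviations from the group means of 0.078 to 0.602 between the Mtor fl/fl groups, -0.105 to 0.624 between the baseline groups, -0.104 to 0.316 between Mtor-cKO baseline and Mtor fl/fl day 7, and -0.469 to 0.129 between Mtor-cKO day 7 and the others. Every pair of groups held at least 1 below 0.1, so the numbers were not taken to pair the mice, and not every library correlated best with its own number. With the replicate number as a block the counts were 11, 9, 11, 18 and 4, the last being Slit3, Sema3g, Sema4g and Plxnb1. The remaining alternatives were chosen after seeing the data. Without the 3 libraries highest in skeletal muscle markers the counts were 5, 1, 1 and 5 for the 2 injury and 2 genotype comparisons. Without the 4 Mtor fl/fl libraries low in nonneuronal markers they were 10 for injury in Mtor fl/fl (5 of them among the 8), 12 for injury in Mtor-cKO, 23 for genotype at baseline and 2 for the interaction. Without Mtor fl/fl baseline replicates 3 and 4 they were 17 for injury in Mtor fl/fl, 13 for genotype at baseline and 21 for genotype at day 7. The cause of these shifts was not tested. With 4 or 5 mice a group, small changes of low genes could not be resolved, and whole ganglia do not show which cells hold a transcript.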
